A study of Schizosaccharomyces pombe
Saccharomyces cerevisiae with 16 samples.

Results

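The abundance of newly synthesized RNA was set against that of total RNA, gene by gene, in budding yeast (Saccharomyces cerevisiae) whose Med17 protein carried a degron tag but had not been depleted. The members were all 6764 genes present in both deposited count tables, of 6900 genes in either table, with 95 genes in the newly synthesized RNA table only and 41 in the total RNA table only. Of these 6764 genes, 5802 had enough reads to be tested, and 884 of the remaining 962 had at least 1 read in the 4 libraries used. The log2 ratio of new to total RNA was expressed relative to the median gene, which therefore has the value 0, and is called the ratio below.

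The strain, of mating type alpha, expressed the rice F-box protein OsTIR1 from the GPD1 promoter at his3 and had an auxin-inducible IAA7 tag on the Mediator subunit Med17. Its cultures received the solvent DMSO for 30 min in place of auxin and then 5 mM 4-thiouracil, a uracil analogue that cells build into new RNA, for 6 min. Before extraction, S. pombe, a fission yeast, was added at 3 parts to 1 part of S. cerevisiae, and labelled RNA was purified from the total RNA. Each of the 4 kinds of DMSO library used here, new and total RNA from this strain and from a strain tagged on Med14 in its place, had 2 biological replicates, out of 16 libraries in the series. All these cells carried OsTIR1 and a tagged Mediator subunit, so none of them is an untagged wild type. For these samples the labels disagree on the tag: the genotype entry gives Med14, and strain and source give Med17, which was taken as correct.

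The amount of an RNA in a cell is set by its synthesis and its decay. After a short pulse of label the purified fraction holds mostly RNA made during the pulse, and total RNA also holds what has accumulated before. At steady state an RNA with a long life is therefore relatively scarce in the labelled fraction, and one that is made and degraded quickly is relatively rich in it. In growing yeast, messages of ribosomal proteins and glycolytic enzymes are known for high abundance and long lives, and those of many regulators for short lives. The ratio used here has no absolute time scale, and it also takes in whatever else differs between purified and unpurified RNA, such as capture of short transcripts.

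The new RNA libraries of the Med17 strain held 8574650 and 9995308 reads on the shared genes and the total RNA libraries 4907664 and 8790851. Levels below are read counts divided by library size (CPM), scaled so that the median gene has the same level in new and total RNA, and they are not divided by gene length. The alpha-factor gene MF(ALPHA)1 had levels of 904 and 864 in new RNA and 912 and 920.5 in total RNA. The other alpha-cell genes detected, STE3 and SAG1, were also expressed, and BAR1, the protease of a-cells, was between 1.93 and 2.99. The tagged gene SRB4, which encodes Med17, had levels of 102 and 101 in new RNA and 76.0 and 78.0 in total RNA, with a ratio of 0.39 ± 0.10 (SE). The tag acts on protein, so this level does not check the absence of depletion.

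The ratio was not spread evenly about the median gene. In edgeR's quasi-likelihood test, 907 genes (15.6% of those tested) lay above the median gene and 1477 genes (25.5%) lay below it at a Benjamini-Hochberg adjusted p under 0.05. All 2384 called genes had the same sign in both replicate pairs, which is no separate check, since the same libraries gave the calls. The lower side was much longer. A ratio more than 2-fold below the median gene was reached by 670 called genes, and one more than 2-fold above it by 10. When the difference itself had to exceed 1.5-fold (edgeR's glmTreat), 715 genes (12.3%) were below and 3 (0.0517%) above. The quartiles were -0.47 and 0.30, and the median standard error of a gene was 0.139. The count above the median gene depended on every library of the strain: it was 410 without the first and 456 without the second total RNA library, and 581 without the first and 458 without the second new RNA library. New and total RNA libraries of the same number were taken to come from the same culture, which the labels do not name. With each culture entered as a block on that assumption, 1460 genes were above and 1795 below.

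**Figure D1:**
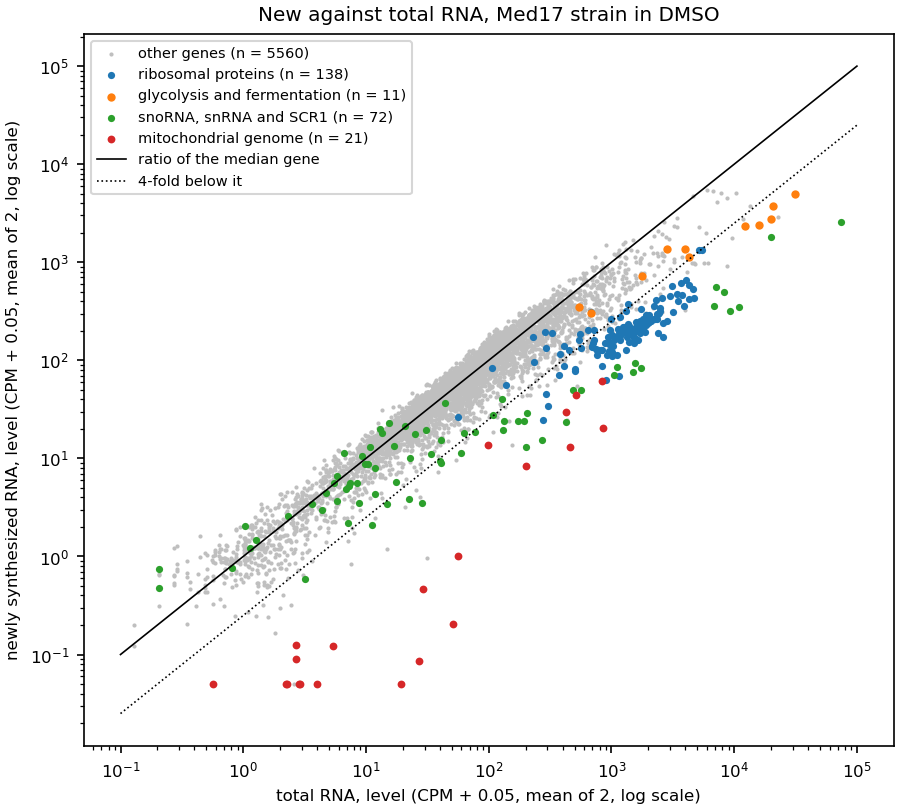
Mean level in newly synthesized RNA against mean level in total RNA (CPM plus 0.05, both axes logarithmic) for the 5802 tested genes of the Med17 strain in DMSO; each point is a gene and the mean of 2 libraries. Ribosomal protein genes, the scaffold RNA SCR1, many small nuclear and nucleolar RNAs and mitochondrially encoded genes lie near or below the dotted line, 4-fold under the median gene.

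The ribosomal protein genes formed the largest block of low ratios. Of the 138 members of this list, all tested, 137 were below the median gene and none above, against 25.5% and 15.6% of all genes, and 134 were below it by more than 2-fold. Their median ratio was -2.74, with -2.80 in replicate pair 1 and -2.71 in pair 2. They took 16.5% and 14.9% of the counts in total RNA and 4.85% and 4.42% in new RNA. RPL41A, which encodes a very short peptide of the large subunit (chromosome IV, 130407 to 130484), had the lowest ratio of any called nuclear protein-coding gene with a mean of at least 100 reads. It stood at 66.6 and 71.0 in new RNA and at 1215 and 1080 in total RNA, a ratio of -4.06 ± 0.28 (SE, edgeR adjusted p = 8.73e-07). RPS26A, of the small subunit, followed with 174 and 175 against 2705 and 2538, a ratio of -3.91 ± 0.13. Neither gene's new RNA values came near its total RNA values.

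All 12 of the lowest nuclear protein-coding genes named by that rule were ribosomal protein genes. After RPL41A and RPS26A came RPL39 at -3.85, RPL9A at -3.64, RPL41B at -3.49, RPL32 at -3.47, RPL25 at -3.45 and RPS31 at -3.45. RPS31, which encodes ubiquitin fused to a small-subunit protein, had 459 and 408 in new RNA and 5076 and 4370 in total RNA. RPS12, RPL36B, RPL24A and RPL31A completed the 12 with ratios of -3.43, -3.34, -3.33 and -3.33. The list holds genes with introns and without. The 88 ribosomal protein genes with an intron had a median of -2.73 and the 50 without one had -2.80.

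Most ribosomal proteins are encoded by a pair of genes, and the partners often had unlike ratios. Over the 59 pairs the median absolute difference between partners was 0.567 on the log2 scale, with 33 pairs apart by more than 0.5 and 20 by more than 1. RPL22A (chromosome XII, 263194 to 263948) had levels of 179 and 167 in new RNA and 1406 and 1295 in total RNA, a ratio of -2.96 ± 0.13. Its partner RPL22B (chromosome VI, 64243 to 64932) had 90.5 and 75.8 in new RNA and 113 and 99.3 in total RNA, a ratio of -0.35 ± 0.13. RPL22B was the only ribosomal protein gene not called (edgeR adjusted p = 0.0555). The partners differed widely in total RNA and much less in new RNA, without overlap in either.

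RPS9 showed the same split with the other partner low. RPS9A had 170 and 173 in new RNA against 239 and 216 in total RNA, a ratio of -0.40 ± 0.10, and RPS9B had 299 and 295 against 2455 and 2242, a ratio of -2.98 ± 0.11. Another wide pair was RPL9, with -3.64 for RPL9A and -1.15 for RPL9B. RPS27 had -0.57 for RPS27A and -2.71 for RPS27B. In the Med14 strain the same pairs were -2.60 and -0.30 for RPL22A and RPL22B and -0.27 and -2.80 for RPS9A and RPS9B. Partners can be close in sequence, and the sources used here do not say how reads matching both were assigned, so values for a single partner are uncertain.

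The main enzymes of glycolysis and fermentation were low. Of 19 genes listed by name, 11 could be matched to the shared genes, and all 11 were tested and below the median gene, with a median of -1.90. Only 2217 of the 6764 shared genes carry a name, so lists by name can be incomplete. For example, 27 of 93 listed ribosome biogenesis genes and 6 of 23 listed iron genes were matched. Counts for lists by name, here and below, cover the matched members alone. The wider set of 32 genes with a glycolysis annotation had 17 below and 5 above, with a median of -0.84. The 11 made up 8.18% and 8.25% of the counts in total RNA and 3.03% and 3.07% in new RNA. TDH3, the main glyceraldehyde-3-phosphate dehydrogenase gene, had 4722 and 5118 in new RNA against 31135 and 31234 in total RNA. Its ratio was -2.66 ± 0.13. The aldolase gene FBA1 had -2.73, the pyruvate kinase gene CDC19 -2.86, the enolase gene ENO2 -2.46 and the alcohol dehydrogenase gene ADH1 -2.37. The least extreme member was the glucokinase gene GLK1 at -0.63. TDH1, TDH2 and TDH3 are alike in sequence, as are ENO1 and ENO2, so reads may have been shared among them.

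The rest of the translation apparatus followed the ribosomal proteins in part. All 19 aminoacyl-tRNA synthetase genes, which charge tRNAs with their amino acids, were below the median gene, from -2.24 for GUS1 to -0.75 for MES1 with a median of -1.17. Of 24 translation factor genes 19 were below and none above, with a median of -0.87. Elongation factors were at the low end. TEF1, one of a near-identical pair of genes for the elongation factor that delivers tRNAs, had 947 and 997 in new RNA and 6306 and 5933 in total RNA, a ratio of -2.65 ± 0.13. YEF3, the fungal elongation factor 3 gene, had a ratio of -1.86 and the cap-binding protein gene CDC33 had -1.24. The GCD1, GCD2 and GCN3 genes, for subunits of the exchange factor eIF2B, had 0.21, 0.12 and 0.07 and were not called.

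Chaperone genes ranged widely. Of 19 tested, 14 were below the median gene and none above. The ribosome-bound chaperone genes SSB1 and SSB2 had ratios of -2.31 and -2.38, and their partners SSZ1 and ZUO1 -2.05 and -1.88. SSB1 stood at 1013 and 902 in new RNA and 4900 and 4616 in total RNA. The Hsp90 gene HSC82 had 4012 and 5040 in new RNA and 8319 and 9069 in total RNA, a ratio of -0.94 ± 0.12. Its heat-inducible counterpart HSP82 had -0.12, and the heat-inducible Hsp70 genes SSA3 and SSA4 had 0.13 and 0.05, none of them called. In the general stress list, which shares HSP12 (-2.77) with the chaperones, 3 of 11 genes were below, a share of 27.3% that is close to the 25.5% of all genes.

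Metabolic genes named by list were mostly below the median gene, and the wider annotated sets of sterol and amino acid synthesis were less so. In ergosterol synthesis 11 of 12 genes were below, with a median of -0.83, led by ERG2 at -1.83 and the farnesyl diphosphate synthase gene ERG20 at -1.76. ERG5, a late desaturase of the pathway, was the exception in this list, above the median gene at 0.36. Of the 41 genes annotated with sterol synthesis 24 were below and 2 above, with a median of -0.43. Amino acid synthesis had 9 of 12 listed genes below with a median of -0.98, and GDH1, which makes glutamate from ammonia, was lowest at -2.56. Of the 112 genes annotated with amino acid biosynthesis 55 (49.1%) were below and 5 above, with a median of -0.39. The nuclear respiration list had 10 of 15 below with a median of -0.59, and CYC1, the gene of cytochrome c, was at -1.17. In the annotated set of respiratory chain and ATP synthase genes 32 of 49 were below and 1 above, with a median of -0.60. With the trend of the ratio over coding length removed, the median was -0.19 for the respiration list and -0.13 for the annotated set. Of 6 tested genes in the list of tricarboxylic acid cycle and iron-sulfur genes, 4 were below, with a median of -0.52.

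Cell wall and membrane protein genes ranged widely. TIR1, a cell wall mannoprotein gene, had the lowest value at -3.63 ± 0.29. It rests on few reads, 10 and 21 in new RNA and 60 and 81 in total RNA, and was -2.03 in the Med14 strain. CWP2, another mannoprotein gene, had levels of 390 and 409 in new RNA and 1634 and 1660 in total RNA, a ratio of -2.04 ± 0.09. PMA1, the plasma membrane proton pump gene and one of the most abundant of the list, had -0.83. The highest were UTR2 at 0.22 and the protease gene YPS1 at 0.25, which were not called. Of 15 members 8 were below and none above, and of the 88 genes annotated to the cell wall 39 were below and 7 above, with a median of -0.26. Among phosphate genes, 7 of 11 were below and PHO81, the inhibitor of the pathway's kinase, was above at 0.64. Of the 4 pyrimidine genes, the 3 below were FCY1 at -2.04, URA6 at -1.67 and URA5 at -0.96, and the permease gene FCY2 was not called at 0.27.

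Several large assemblies sat nearer the median gene. The proteasome list had 10 of 21 genes below and none above, with a median of -0.44, and the 48 genes annotated to the proteasome had 19 below and 1 above, with a median of -0.21. Nuclear genes for mitochondrial translation had 10 of 37 below, a share of 27.0% that is near the 25.5% of all genes, and a median of -0.17. Of 27 ribosome biogenesis genes 5 were below and 1 above (NOC4, 0.47), with a median of -0.03. The box C/D protein genes NOP1, NOP56 and NOP58 were among the 5, at -0.77, -0.69 and -0.46. The factors that assemble ribosomes thus lay near the median gene. Histone genes had 4 of 6 below, with a median of -0.46, which turned to 0.14 once the trend of the ratio over coding length was removed. Methionine and sulfur genes had 4 of 10 below, and none of 6 iron genes was called.

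Abundant noncoding RNAs known to be stable also had low ratios, several of them below -4.06, the lowest of the ribosomal protein genes. SCR1, the RNA that scaffolds the signal recognition particle (chromosome V, 441987 to 442508), took 5.29% and 5.47% of the counts in total RNA and 0.355% and 0.373% in new RNA. Its levels were 2443 and 2675 in new RNA and 73582 and 75826 in total RNA, a ratio of -4.87 ± 0.24 (edgeR adjusted p = 7.60e-08). RPR1, the RNA of ribonuclease P, had a ratio of -3.60. The spliceosomal RNAs SNR19 (U1) and LSR1 (U2) had -4.26 and -3.47.

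Small nucleolar RNAs took 3.31% and 3.38% of the counts in total RNA and 0.401% and 0.415% in new RNA. The class of box H/ACA RNAs, guides of pseudouridylation with a median length of 203 nucleotides, had 24 of 27 members below and a median of -2.54. snR30, an H/ACA RNA needed to cleave the ribosomal precursor, had 344 and 355 in new RNA against 11535 and 10447 in total RNA, a ratio of -4.98 ± 0.18. SNR17A, one of the pair of U3 genes, had 292 and 343 against 8183 and 10423, a ratio of -4.87 ± 0.33. Box C/D RNAs by annotation, guides of ribose methylation, had 12 of 38 below (31.6%, near the 25.5% of all genes). Above were 2 (5.26%, against 15.6%), and the median was -0.27. Their lowest ratio was -3.50, so SNR17A is not among them. Their median length was 98 nucleotides, and with the length trend removed the median became 0.87, while that of the H/ACA RNAs stayed at -1.62. Of 252 tRNA genes only 29 had enough reads, so their median of -1.21, with 13 below, describes those 29 alone. With the length trend removed that median was -0.06.

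Genes of the mitochondrial genome had the lowest median of any class. All 21 tested, of 41 in the tables, were below the median gene. Together these 41 took 0.263% and 0.256% of the counts in total RNA and 0.0254% and 0.0292% in new RNA. OLI1, for a subunit of the ATP synthase, had 17.6 and 23.5 in new RNA and 826 and 865 in total RNA, a ratio of -5.36 ± 0.28. ATP6, for another subunit, had 12.8 and 13.3 against 446 and 477, a ratio of -5.14 ± 0.12. COX2, a cytochrome oxidase subunit gene, had -3.77.

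For 7 of the 21 mitochondrial genes no read was counted in either new RNA library. ATP8 had 0 and 0 reads in new RNA and 65 and 128 in total RNA, and VAR1, a mitochondrial ribosomal protein gene, had 3 and 1 reads against 171 and 336. The median of the 21 fitted ratios was -5.83, and -4.94 when the 7 genes were placed at the bound set by 3 reads over both libraries. In the Med14 strain the median was -4.12. A gene can pass the filter on low counts through total RNA alone, so the count of 21 does not speak for the 20 that did not pass.

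The opposite end was a short tail, with ratios far closer to 0. YGR023W, described as a putative plasma membrane sensor of cell integrity (chromosome VII, 529264 to 530919), had the highest ratio among the called nuclear protein-coding genes with a mean of at least 100 reads. Its levels were 31.8 and 30.7 in new RNA and 12.2 and 14.8 in total RNA, a ratio of 1.19 ± 0.30 (edgeR adjusted p = 0.00977). CAX4, a dolichyl pyrophosphate phosphatase gene, had 33.4 and 32.7 against 15.3 and 18.0, a ratio of 0.97 ± 0.14. Both genes' new RNA values lay above all their total RNA values. YPL279C, a fluoride exporter gene with a near-identical copy in the genome, had 1.02 ± 0.33, and its reads may be shared with that copy.

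MPT5, whose Puf-family product binds target messages and promotes their decay, had 178 and 192 in new RNA and 93.6 and 108 in total RNA, a ratio of 0.88 ± 0.12. YDR303C, for a part of the chromatin remodeller RSC, had 190.3 and 210.2 against 102 and 116, a ratio of 0.87 ± 0.16. YLR024C, for a ubiquitin ligase, had 183 and 238 against 111 and 120.5, a ratio of 0.86 ± 0.13. These were the most abundant of the 12. YAP6, a bZIP transcription factor gene, stood at 14.3 and 13.6 against 5.96 and 8.51, and the putative zinc-cluster factor gene URC2 at 55.1 and 59.5 against 33.5 and 29.2. GPI2, for the first step of membrane anchor synthesis, had 0.90, and YER047C, YPR116W and YMR010W had 0.88, 0.87 and 0.84. In the Med14 strain YAP6 had -0.04 and GPI2 0.95.

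**Figure D2:**
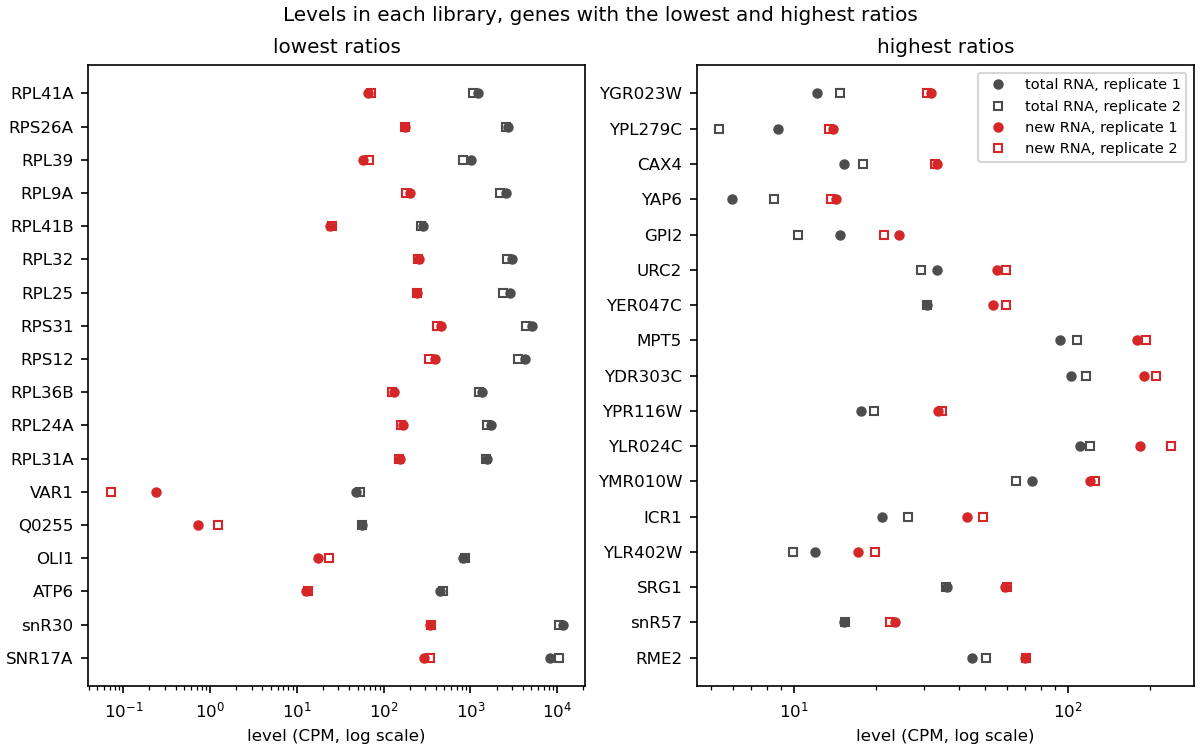
Level in each of the 4 Med17 DMSO libraries (CPM, logarithmic axis) for the genes named at the low end (left) and the high end (right) by the naming rule, with total RNA in grey and new RNA in red. New and total RNA are well separated for every gene on the left, and the separation on the right is smaller, for example 31.8 against 12.2 in replicate 1 for YGR023W.

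Genes of regulators lay mostly on the upper side. Of 54 tested transcription factor genes listed by name, 20 were above and 1 below, with a median of 0.30, and of the 173 genes annotated with transcription factor activity 64 were above and 10 below, with a median of 0.31. GCR1, the activator of glycolytic genes, had 0.81, SWI4, a factor of the G1/S transition, 0.75, SFP1, an activator of ribosomal protein genes, 0.70, and GAL4 0.68. SWI4 stood at 119.5 and 128 in new RNA and 73.2 and 73.4 in total RNA. The 1 gene below in the list by name was HAC1, the factor of the unfolded protein response whose message is spliced outside the nucleus, with 425 and 424 in new RNA, 969 and 957 in total RNA and a ratio of -1.18 ± 0.09. GCN4, known for control of its translation, had -0.16 and was not called.

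Of 130 annotated protein kinase genes 61 were above (46.9%, against 15.6% of all genes) and 3 below, with a median of 0.35. Their median coding length was 1996.5 nucleotides, and with the length trend removed the median ratio was 0.08. In the list of cyclins and cell cycle genes 4 of 11 were above and none below. They were SWI4, the G1 cyclin gene CLN3 at 0.61, the polo kinase gene CDC5 at 0.55 and the gene of the anaphase activator CDC20 at 0.48. CLN3 had 118 and 117 in new RNA and 82.3 and 72.2 in total RNA. Amino acid and nucleobase permeases had 4 of 10 above and none below. Their highest was DAL5, for an allantoate permease, at 0.52. Of 6 genes listed as substrates of nonsense-mediated decay, 4 were above, CTF13 at 0.73, EST2 at 0.64, SPT10 at 0.45 and ALR1 at 0.36, and none below.

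Complexes of the transcription and decay machinery had members on both sides. Of 30 genes for Mediator and RNA polymerase II, 7 were above and 7 below (23.3% each). The 7 above were all Mediator genes: SRB8 at 0.73, SIN4 at 0.65, NUT1 at 0.52, RGR1 (Med14) at 0.41, SRB4 (Med17) at 0.39, SSN2 at 0.36 and GAL11 at 0.34. The 7 below were 5 polymerase subunit genes, led by RPB11 at -1.63, and the Mediator genes SRB2 at -1.52 and SRB6 at -0.60. With the length trend removed, the tagged genes RGR1 and SRB4 had 0.03 and 0.13, and the median of the 30 genes went from -0.08 to 0.06. TFIID, SAGA and general factor genes had 5 of 27 above (18.5%) and 4 below (14.8%), and mRNA decay genes had 7 of 33 above (21.2%) and 6 below (18.2%). These shares are near those of all genes, 15.6% above and 25.5% below. In the decay list the CCR4-NOT deadenylase genes CDC39, MOT2 and CDC36 were at 0.62, 0.46 and -0.67, and the LSM ring genes LSM3, LSM2 and LSM1 at -0.81, -0.44 and -0.40.

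Genes known for feedback on their own RNA did not share a direction. Of 13 tested, 8 were below and 3 above with a median of -0.58. RPL30 and RPL28, ribosomal protein genes that also belong to that list, had -3.02 and -3.01, and the guanine nucleotide gene IMD2 had -1.45. NAB3, a termination factor gene, had 0.36, and GCR1 and the noncoding RNA SRG1 0.81 and 0.72.

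A few long noncoding RNAs joined the upper end. ICR1, which is transcribed across the regulatory region of a flocculin gene (chromosome IX, 393884 to 397082), had 43.0 and 49.1 in new RNA and 21.0 and 26.2 in total RNA, a ratio of 0.95 ± 0.15. SRG1, whose transcription represses SER3, had 58.97 and 59.96 against 36.3 and 35.9, a ratio of 0.72 ± 0.19. RME2, an antisense transcript of IME4, had 69.7 and 70.3 against 44.8 and 50.1, a ratio of 0.55 ± 0.12. These values lie at the level of the higher transcription factor genes. The box C/D RNA snR57 had 0.58 and the dubious reading frame YLR402W 0.78. The sources used here do not say whether counting used strand, so reads of RME2 and IME4 could not be told apart, and the same holds for other overlapping genes.

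**Figure D3:**
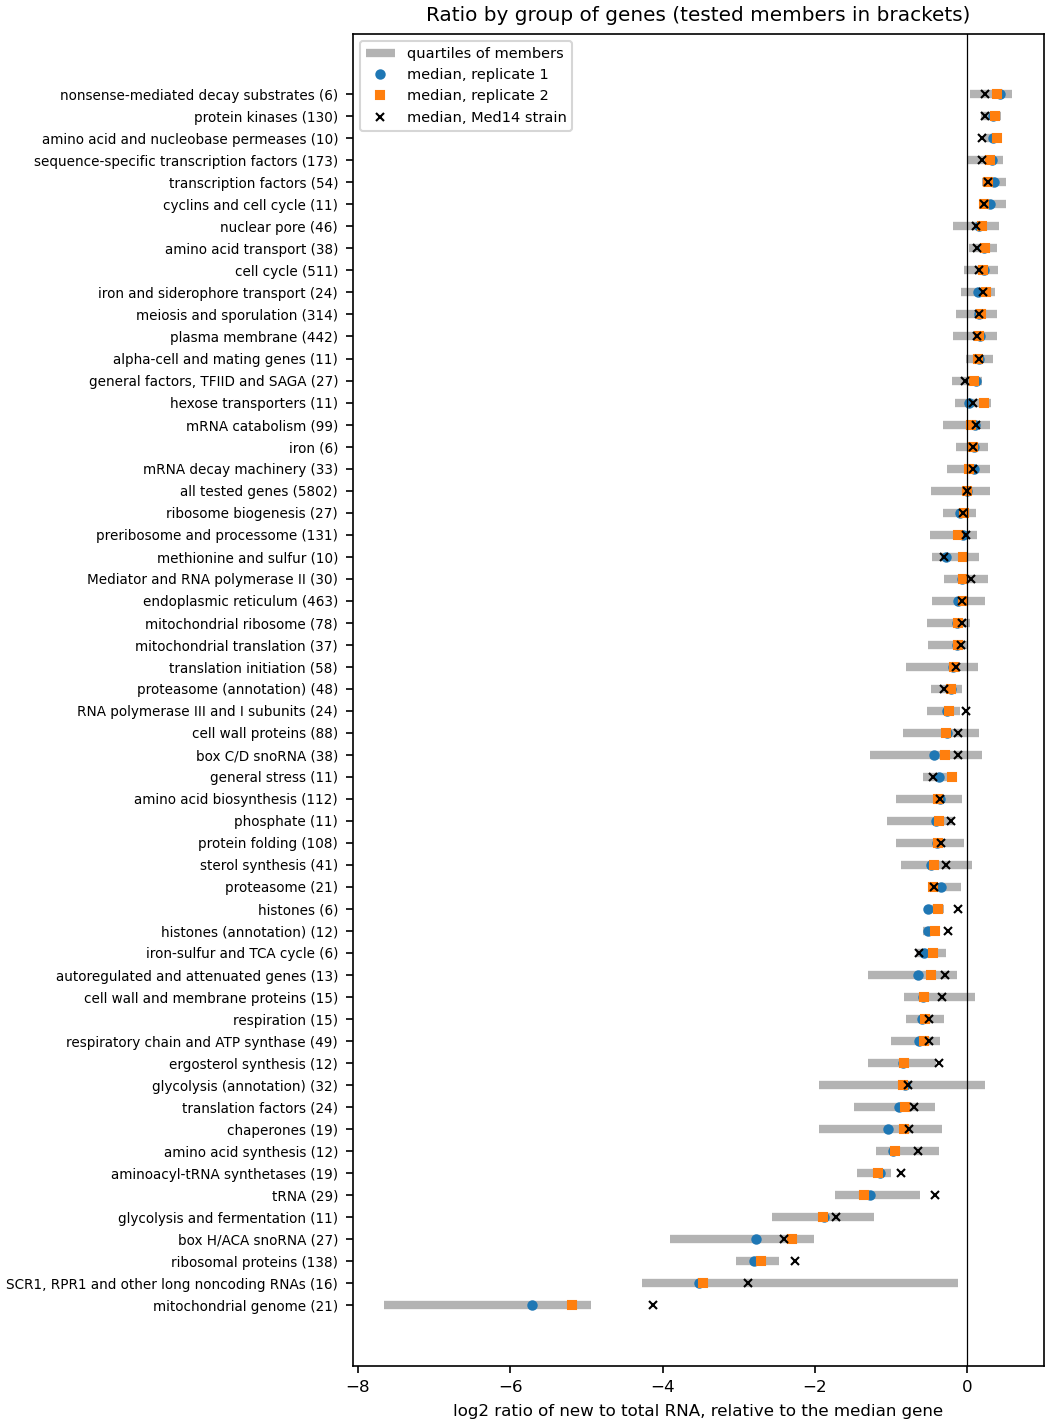
Median ratio of each group of genes with at least 5 tested members, in replicate pair 1 (circles), replicate pair 2 (squares) and the Med14 strain (crosses), with the quartiles of the members in the Med17 strain as grey bars and the number of tested members in brackets; the axis is the log2 ratio relative to the median gene. Medians run from the mitochondrial genome, SCR1 and related RNAs and ribosomal proteins at the bottom to protein kinases (0.35) and substrates of nonsense-mediated decay (0.40) at the top.

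The ratio moved with coding length and with RNA level. In quintiles (5 groups of equal size) of the 5508 nuclear protein-coding genes ordered by length, with median lengths of 441, 852, 1239, 1743 and 2830.5 nucleotides, the median ratio was -0.54, -0.15, 0.01, 0.18 and 0.32. Only 0.726% of the shortest quintile but 44.6% of the longest were above the median gene. Across these genes Pearson's r of the ratio with log2 length was 0.452 and Spearman's rho was 0.513, as a description over genes that share the same 4 libraries. The trend was also present within the middle quintile of RNA level per kilobase, which holds 1 ribosomal protein gene: its quintiles of length had medians of -0.20, -0.04, 0.13, 0.25 and 0.36.

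RNA level was taken from the total RNA of the Med14 strain, which does not enter the ratio. From the lowest to the highest quintile of this level per kilobase of gene, the median ratio of the Med17 strain was 0.23, 0.21, 0.13, -0.14 and -0.81. The lower values of the ratio came in the top 2 quintiles. Of the highest quintile, 77.6% were below the median gene, and it held 137 of the 138 ribosomal protein genes. Ordered by new RNA per kilobase in the Med14 strain, the top quintile also had the lowest median, -0.63, so genes with much new RNA were on the low side too.

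Gene structure went with length. Of 164 intron-containing genes outside the ribosomal proteins, 78 were below and 12 above with a median of -0.43, and with the length trend removed their median was -0.03. The same adjustment left the ribosomal proteins at -2.20, glycolysis at -2.07 and the synthetases at -1.49, and it lowered the median of protein kinases from 0.35 to 0.08 and that of the listed transcription factors from 0.30 to 0.12. It turned the sign of mitochondrial translation to 0.17, of TFIID, SAGA and general factors to -0.09 and of nuclear pore genes from 0.22 to -0.08. What part length has in the ratio beyond this trend was not tested.

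Genes ordered by the ratio were also compared in their response to loss of Med14, measured in libraries that the ratio does not use. Total RNA of the Med14 strain after auxin, against DMSO, had median log2 changes of 0.20, -0.12, -0.11, -0.06 and -0.06 from the lowest to the highest quintile of the Med17 ratio, relative to a scaling factor (TMM) common to all genes. The lowest quintile was the only one with a positive median. The gap between the highest and lowest quintiles was -0.26. Taken in each of the 2 replicates alone, the gap had an SD of 0.23, so its size was little more than that spread. It was -0.39 without the first and -0.14 without the second total RNA library of the Med14 strain in DMSO.

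Of the 138 ribosomal protein genes 135 lie in the lowest quintile. Among nuclear protein-coding genes without them the gap was -0.12, and in the middle quintile of coding length it was -0.27. With the length trend removed from the ratio it was -0.43. For newly synthesized RNA of the Med14 strain the order was the opposite, with median changes of -0.45, -0.13, 0.07, 0.14 and 0.20. The spread of the new RNA medians between replicates was not tested. All these changes are relative values, and a change common to all genes is not seen in them.

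**Figure D4:**
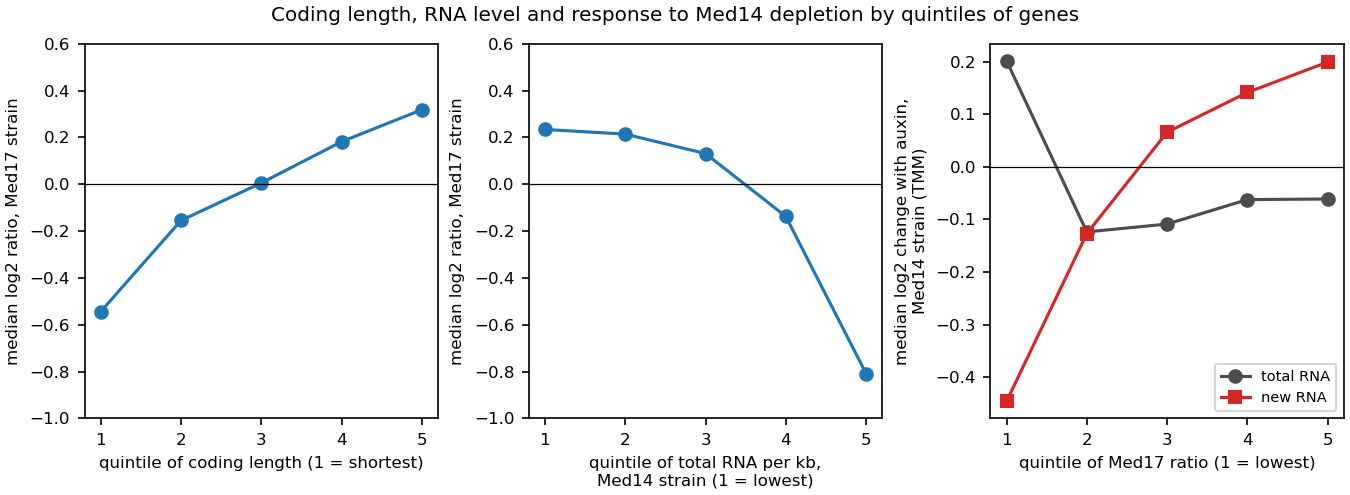
Left and middle, median log2 ratio of the Med17 strain in quintiles of nuclear protein-coding genes by coding length and by total RNA per kilobase in the Med14 strain; right, median log2 change with auxin in the Med14 strain of total RNA (circles) and new RNA (squares) in quintiles of all tested genes by the Med17 ratio. The ratio increases from -0.54 to 0.32 with length and decreases to -0.81 at the highest RNA level, and on the right total RNA starts at 0.20 and new RNA at -0.45 in the quintile with the lowest ratios.

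The Med14 strain in DMSO is the most similar set of libraries, and its ratios ranked genes in nearly the same way. Across 5802 genes Pearson's r between the strains was 0.851 and Spearman's rho was 0.809, as a description over libraries that share no culture. In that strain 498 genes (8.58%) were above and 1294 (22.3%) below. Of the 907 genes above in the Med17 strain, 889 had a positive ratio in the Med14 strain and 376 were called there, and of the 1477 below, 1457 had a negative one and 1134 were called. None of the 907 was called below in the Med14 strain.

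The spread over genes was wider in the Med17 strain, with a standard deviation of 0.866 against 0.773. The fitted extremes were -12.2 and 2.80 in the Med14 strain against -10.5 and 2.46. The -10.5 belongs to the mitochondrial genome, where 7 of 21 tested genes had no new RNA read in the Med17 strain. Such extremes can rest on few or no reads, so they do not compare the strains. Of the 138 ribosomal protein genes 137 were lower in the Med17 strain than in the Med14 strain, with a median of -2.74 against -2.27, and ribosomal protein genes took 6.60% and 6.52% of new RNA counts there against 4.85% and 4.42%. No ribosomal protein gene passed the test of the difference between strains. Over all tested genes 2976 of 5802 were lower in the Med17 strain. All 19 synthetase genes and all 12 listed ergosterol genes were lower, as were 31 of the 41 genes annotated with sterol synthesis, whereas 8 of 21 listed proteasome genes and 31 of 130 protein kinase genes were.

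In the test of that difference 2 genes (0.0345%) were lower in the Med17 strain and 0 were higher, and 582 genes had an unadjusted p under 0.05. FPR1, the gene of a prolyl isomerase that binds rapamycin, had 53.9 and 55.9 in new RNA and 533 and 524 in total RNA in the Med17 strain, whereas the Med14 strain had 123 and 148 against 576 and 535. Its ratios were -3.27 and -2.03, a difference of -1.23 ± 0.16 (edgeR adjusted p = 0.0403). GDH1 had 121 and 138 in new RNA and 755 and 776 in total RNA in the Med17 strain, whereas the Med14 strain had 251 and 222 against 613 and 582. Its ratios were -2.56 and -1.34, a difference of -1.23 ± 0.15 (edgeR adjusted p = 0.0403). For both genes new RNA was lower in the Med17 strain in each library, without overlap. That is no separate check, since the same libraries gave the calls. Both calls were lost when any library of the Med17 strain or either total RNA library of the Med14 strain was left out, with 0 genes then lower.

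With the culture as a block, 351 genes had a lower and 113 a higher ratio in the Med17 strain, and with DESeq2 140 and 14, so the number of genes that differ between the strains is not settled by these libraries. OYE3, an NADPH oxidoreductase gene, had the largest gap among the genes with the smallest p-values, with a ratio of -0.01 in the Med17 strain against -3.47, and did not pass (edgeR adjusted p = 0.0975). In the Med17 strain its levels were 555 and 636 in new RNA and 508 and 692 in total RNA. The Med14 strain had only 3.87 and 2.83 against 55.4 and 18.4, so the ratio there rests on low values.

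**Figure D5:**
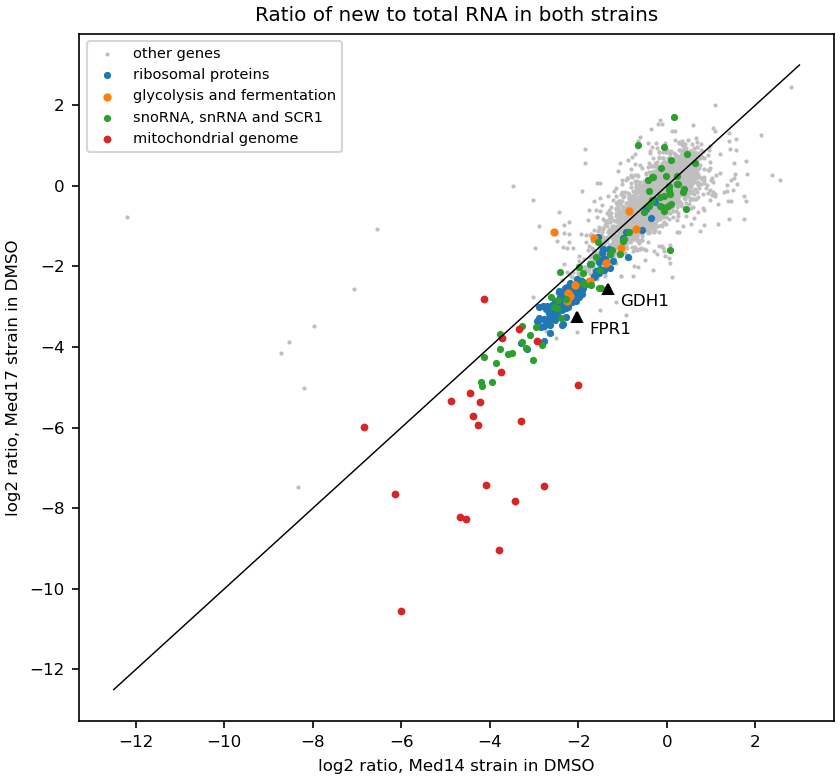
Log2 ratio of new to total RNA in the Med17 strain against that in the Med14 strain, both in DMSO and relative to the median gene, for the 5802 tested genes; the line marks equal ratios and triangles mark FPR1 and GDH1. Points follow the line, with the ribosomal proteins slightly under it (medians of -2.74 and -2.27).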

How the data were processed

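RNA was sequenced from total and 4-thiouracil-labelled fractions by a stranded kit with ribosomal RNA depletion, per the labels. The submitters' processing notes name bcl2fastq 2.17.1.14 and build sacCer3; the sources used here give no aligner, counter, strand setting or annotation version. The deposited tables hold raw counts per gene, per the file headers. The authors' normalized counts, a deposited signal equal to the raw count times 1 constant per library, served for an alternative only. Gene names come from the files, which name 2217 of the 6764 shared genes; their lengths are coding lengths for protein genes.

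Raw counts were fitted with edgeR 4.0.16 (two-sided quasi-likelihood test) in R 4.3.3 over the 8 DMSO libraries with 4 residual degrees of freedom, after filterByExpr and TMM scaling, with offsets that put the median gene of each strain at 0. Benjamini-Hochberg adjustment ran over all 5802 tested genes, with a threshold of 0.05. SE comes from the fit. Same-numbered new and total RNA libraries deviated together (correlation over 5278 genes of 0.59 in the Med17 and 0.48 in the Med14 strain). The design derives both kinds of RNA from 1 extract. That the same number means the same culture was assumed, since the labels do not name the culture. The replicate block is therefore given beside the counts it moves. Named genes are the tagged genes, the 12 highest and lowest called protein-coding and up to 6 other genes with a mean of at least 100 reads, the extreme and most abundant members of each list, and the strain differences. RPL22A, its wide-pair relatives and the members named to complete a count of a list were chosen after their values were seen. Gene lists and the members were chosen with earlier results of these data known, and lists by annotation after the files were read. The fit was tested on simulated data. Alternatives included DESeq2 1.42.0 and left-out libraries. With 2 replicates per group the precision is limited.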

Additional observations from a re-analysis of the deposited data

Results flagged for a closer look

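The ratio differed between the strains in a test of the difference itself for FPR1, by -1.23 on the log2 scale (Med17 minus Med14), and for GDH1, also by -1.23. Groups of 2 samples are too small for a check of single samples.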

How the results depend on the processing

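The count of genes below the median gene (1477) stayed within 1.5 times under every alternative run except the test against a 1.5-fold difference, which gave 715; leaving out single libraries gave 1168 to 1599. The count above (907) was 589 with the authors' constants, 3 with the 1.5-fold test and 1460 with the replicate block, and 410 to 1120 with single libraries left out. With the replicate block 2382 genes were called both ways, 873 only with it and 2 only without it, none with opposite sign. Genes with a higher ratio in the Med17 strain (0) numbered 1 each with the authors' constants, total counts, no filter and all 16 libraries, 14 with DESeq2, 113 with the replicate block and 0 to 10 with single libraries left out. Genes lower (2) numbered 1 with the authors' constants, 0 with median-of-ratios factors and with the 1.5-fold test, 140 with DESeq2, 6 with all 16 libraries, 351 with the replicate block and 0 to 7 with single libraries left out. The cause was not tested. The gap in Med14 total RNA change kept its sign everywhere, from -0.39 to -0.14 with single libraries left out; leaving out ribosomal proteins (-0.12) and the middle length quintile (-0.27) were chosen after seeing the data. Of 53 lists with 5 or more tested members, 16 changed the sign of their median under some of 19 settings, of which 2 had a median over 0.3 from 0. Single genes were rerun for the tagged genes, the highest and lowest genes and those with the smallest p for the strain difference, not for members named by list alone. Of these alternatives, 744 kept the call or the lack of one and 35 lost the call. Depth limits genes under about 100 reads, where 17 of the 907 lie.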
